A study of Mus musculus with 5 samples.

Results

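The thyrotrope line TαT1 was compared with the αT1–1 line, which is used as a model of a progenitor of the gonadotrope and thyrotrope lineages. The labels call TαT1 a mature line and αT1–1 an embryonic, immature gonadotrope line. Both were made from pituitary tumors of CB6F1/J mice that carried an SV40 T antigen transgene, so viral T antigen is shared by both sides of the comparison. The promoter that drove the transgene is not given in the sources used here. Neither line was treated, and both were grown in the same serum-containing DMEM and harvested before confluency. Each is a single tumor-derived line, so a difference of lineage, a difference of stage and a difference between tumors cannot be told apart.

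The series holds RNA sequencing of 5 mouse lines, the other 3 being αT3–1 (immature gonadotrope), LβT2 (mature gonadotrope) and NIH3T3 (embryonic fibroblast). Levels were deposited as RPKM, that is, reads scaled to the length of the gene model and to the depth of the library, in 1 column per line. With no replicate column there was no spread to test against, so no p-value is given and genes are described by the size of the difference between the lines. The comparison took in the 11464 of 21437 genes that reached 1 RPKM in TαT1 or αT1–1. Of these, 10107 reached it in both lines, 714 in TαT1 alone and 643 in αT1–1 alone. Just inside the minimum stood Tmem56 (0.759 RPKM in TαT1 and 1 in αT1–1) and G2e3 (1 RPKM in TαT1 and 0.654 in αT1–1), and just outside it Erc2 (0.925 RPKM in TαT1 and 0.999 in αT1–1) and D3Ertd254e (0.24 RPKM in TαT1 and 0.999 in αT1–1). The steps between low values showed that about 18847538 reads stood behind the TαT1 column and 20241073 behind the αT1–1 column.

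Thyrotropes secrete thyrotropin (TSH), a dimer of the common glycoprotein hormone α subunit encoded by Cga and a specific β subunit encoded by Tshb. In the pituitary, the POU homeodomain factor PIT1 (Pou1f1) is required for thyrotropes, somatotropes and lactotropes, and acts on Tshb together with the zinc finger factor GATA2. Secretion of TSH is driven by the hypothalamic peptide TRH and restrained by thyroid hormone. Gonadotropes share the α subunit but depend on the nuclear receptor SF1 (Nr5a1) and on the receptor for GnRH.

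The upstream sequences of the 2 hormone genes that set TαT1 apart are shown because both hormones belong to the PIT1 lineage. They are the 250 bases before the RefSeq start on GRCm38.p6, 5′ to 3′ on the strand of the gene. Capitals mark the letters TATNCAT of a PIT1 site and GATAAG of a GATA site, searched on both strands.
Tshb, minus strand, chr3:102782715-102782964: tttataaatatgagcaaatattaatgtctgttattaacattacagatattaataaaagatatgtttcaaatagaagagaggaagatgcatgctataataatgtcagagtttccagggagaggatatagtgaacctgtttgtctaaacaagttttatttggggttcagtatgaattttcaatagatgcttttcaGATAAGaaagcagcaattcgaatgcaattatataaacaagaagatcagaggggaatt
Prl, plus strand, chr13:27057320-27057569: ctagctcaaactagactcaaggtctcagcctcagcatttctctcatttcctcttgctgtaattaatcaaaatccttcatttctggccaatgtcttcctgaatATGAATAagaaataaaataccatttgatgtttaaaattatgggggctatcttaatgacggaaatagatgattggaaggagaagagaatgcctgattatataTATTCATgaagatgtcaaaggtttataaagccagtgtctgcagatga
The Tshb stretch holds 1 GATAAG match, 57 bases before the start, and no TATNCAT match. The Prl stretch holds TATNCAT matches 148 and 47 bases before the start and no GATAAG match. A match is a description of letters and was not tested for binding.

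Of the thyrotrope markers, Tshb, Pou1f1, Rxrg and Trhr set the lines apart. Tshb stood at 58.5 RPKM in TαT1, against 0.383 in αT1–1, a 153-fold (65.1 to 472) ratio of reads with its 95% counting interval, and was under 0.2 RPKM in each of the other 3 lines. Pou1f1 stood at 88 RPKM in TαT1, against 3.21 in αT1–1, or 27.4-fold (21 to 36.3), and was not above 0.0612 RPKM elsewhere. Thus TαT1 had RNA of both genes, while αT1–1 had some Pou1f1 RNA and little Tshb RNA. Rxrg, the retinoid X receptor γ that takes part in thyrotrope gene control, stood at 60.3 RPKM in TαT1, against 12.7 in αT1–1 (4.75-fold, 3.98 to 5.7) and at or under 0.0907 RPKM in the other lines. Trhr, the TRH receptor, stood at 2.99 RPKM in TαT1, from 12 reads or more, and was listed at 0 in αT1–1 and the other 3 lines. Against a floor of 3 reads its level was at least 4.3-fold higher in TαT1.

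Cga, Gata2 and Dio2 differed by less than 2-fold. Cga stood at 8802 RPKM in TαT1, against 9081 in αT1–1, which was 2.23% of the summed RPKM in TαT1 and 2.41% in αT1–1. Of its 36-base words, 27.6% also occur on the opposite strand of another gene, whose reads cannot be told apart. Gata2 stood at 51.7 RPKM in TαT1, against 25.9 in αT1–1 (1.99-fold, 1.88 to 2.12). Dio2, the deiodinase that makes active thyroid hormone, stood at 20.9 RPKM in TαT1, against 17.1 in αT1–1 and was below 1 RPKM in the other 3 lines. Foxl2, a forkhead factor that acts on Cga and on gonadotrope genes, was lower in TαT1 (17.6 RPKM in TαT1 and 47.8 in αT1–1). Over the thyrotrope list, 4 of 10 members at 1 RPKM or more were at least 2-fold higher in TαT1 (a difference of log2(RPKM + 1) of 1) and 1 was lower, with a median difference of 0.62. Over all genes compared, 9.14% were 2-fold higher, 9.21% were 2-fold lower, and the median was 0.05. The list counts that follow stand against these shares.

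The gonadotrope markers Gnrhr, Fshb, Lhb and Nr5a1 were each below 1 RPKM in both lines. Gnrhr and Fshb were listed at 0 in both lines, and Lhb stood at 0.208 RPKM in TαT1, against 0.291 in αT1–1, each from at most 3 reads. Nr5a1 stood at 0.288 RPKM in TαT1, against 0.687 in αT1–1, both below 1 RPKM, whereas it stood at 162 in αT3–1 and 265 in LβT2. The stem cell factor gene Sox2 was also listed at 0 in both. Lhx3 and Pitx1, homeodomain factors of the early pituitary, were high in both, with 67.3 RPKM in TαT1 and 100.1 in αT1–1 for Lhx3 and 398 RPKM in TαT1 and 259.8 in αT1–1 for Pitx1. Of 15 markers of fibroblasts, endothelium, blood and glia, 4 reached 1 RPKM in TαT1 and 2 in αT1–1. These were Vim, an intermediate filament (22.6 RPKM in TαT1 and 11.1 in αT1–1, with 2951 in NIH3T3), Kdr, an endothelial receptor for VEGF (20.9 RPKM in TαT1 and 65 in αT1–1), and, in TαT1 alone, Pecam1 (1.01 RPKM in TαT1 and 0.0747 in αT1–1) and Cd68 (1.53 RPKM in TαT1 and 0.931 in αT1–1). The defining genes Col1a1 (0.0452 RPKM in TαT1 and 0.021 in αT1–1), Cdh5 and Ptprc (both listed at 0 in both lines) were at or near 0.

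The distance between TαT1 and αT1–1 was the smallest of the 10 pairs of lines. At a difference of 2 on the log2(RPKM + 1) scale (4-fold), 414 of 11464 genes (3.61%) differed, against 983 (8.2%) between αT1–1 and αT3–1, 1248 (10.3%) between TαT1 and αT3–1 and 1457 (12%) between TαT1 and LβT2. Of the 414 genes, 211 were higher in TαT1 (1.84% of the genes compared) and 203 were lower (1.77%). Within 2-fold lay 9360 genes (81.6%), and the median absolute difference was 0.44. Reads were recovered for 190 of the 211 and 173 of the 203. In each of them the nearer bound of the counting interval was a ratio of 3.53 or more. Because these genes were picked at 4-fold from the same values, such bounds largely follow from the choice and are no separate support. At the 4-fold line stood Xlr3a (3.03 RPKM in TαT1 and 0 in αT1–1, with 56% of its words shared with other genes) and Trhr (2.99 RPKM in TαT1 and 0 in αT1–1) in one direction, and Spcs3 (4.75 RPKM in TαT1 and 22 in αT1–1) and S100a1 (17.3 RPKM in TαT1 and 71.9 in αT1–1) in the other.

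**Figure D1:**
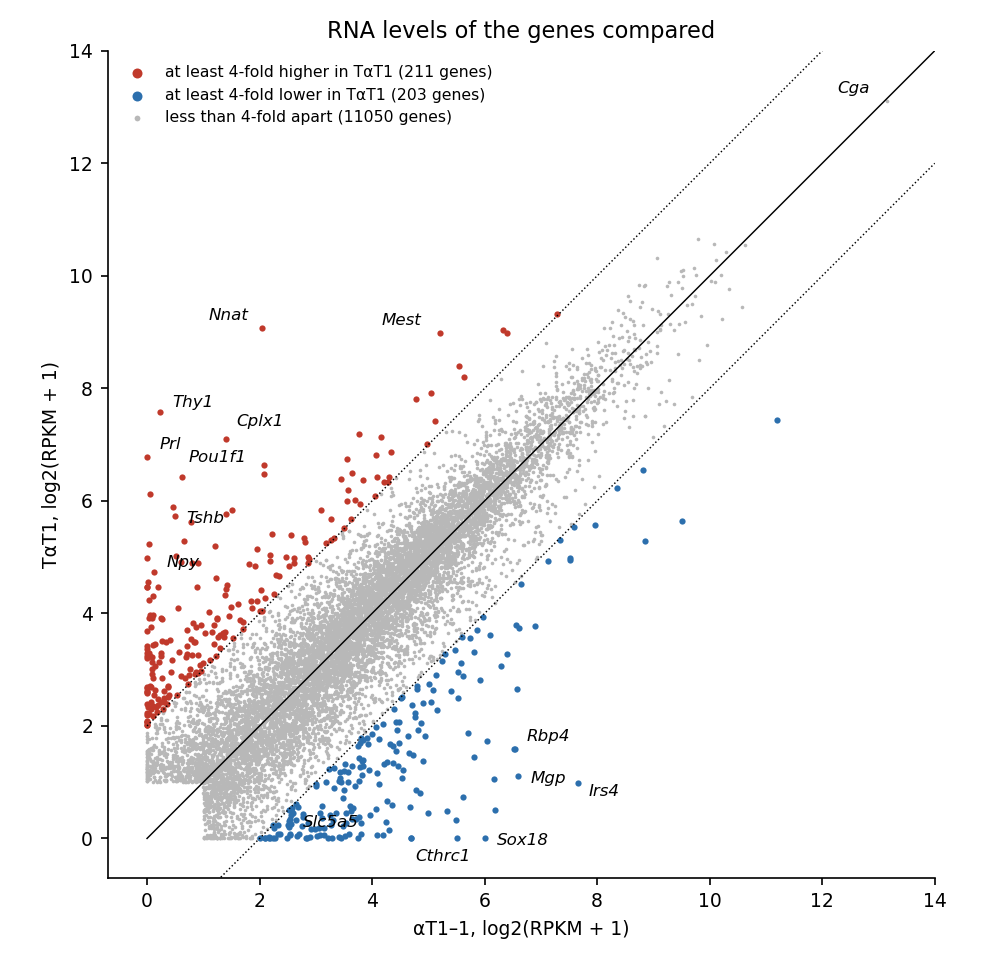
Levels of the 11464 genes compared, with TαT1 on the y axis and αT1–1 on the x axis, both in log2(RPKM + 1). Each point is a gene, the solid line marks equal levels, and points beyond the dotted lines are the 211 genes at least 4-fold higher in TαT1 and the 203 at least 4-fold lower. Cga sits near the line of equal levels at the top right.

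Hormone genes of the PIT1 lineage and other peptide genes were among those higher in TαT1. Prl, the gene of the lactotrope hormone prolactin, stood at 108 RPKM in TαT1, from 1819 reads, and was listed at 0 in αT1–1, so that it was at least 651-fold higher against a floor of 3 reads. Gh, the gene of growth hormone, stood at 1.57 RPKM in TαT1, from 24 reads, and at 0 in αT1–1 (at least 8.59-fold higher). In TαT1 the RNA of a lactotrope hormone was thus above that of Tshb in RPKM, and that of growth hormone was near the minimum. Npy, a neuropeptide, stood at 25.8 RPKM in TαT1, against 0.0907 in αT1–1, where the αT1–1 level rests on 1 read (285-fold, 50.6 to 11283). Calca, which gives calcitonin and CGRP and was chosen after its value was seen, stood at 30.5 RPKM in TαT1 and 5.11 in αT1–1. Pomc, the precursor of ACTH, stood at 5.22 RPKM in TαT1 and 0.0981 in αT1–1. Of 4 corticotrope and melanotrope genes at 1 RPKM or more, 3 were 2-fold higher in TαT1 and 0 were lower (median 1.48). Over all genes compared, 9.14% were higher and 9.21% were lower. Over the 8 listed genes of this kind that were present, at any level, the median was 0. Fewer peptide genes were higher in αT1–1. Pthlh, the parathyroid hormone-like peptide, was lower in TαT1 (1.86 RPKM in TαT1 and 24.2 in αT1–1), as was Gal, the gene of galanin, chosen after its value was seen (0 RPKM in TαT1 and 3.75 in αT1–1). Kiss1 was also lower (3.85 RPKM in TαT1 and 34.6 in αT1–1), but all of its words of 36 bases also occur in an annotated transcript of another gene, so its value is uncertain. Of 26 neuropeptide and hormone genes at 1 RPKM or more, 11 were 2-fold higher in TαT1 and 5 were lower (median 0.82). A gene high in 1 line alone enters such a count through that line. Over all 69 listed genes present, at any level, the median was 0.01.

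The release machinery did not follow a single direction. Scg5, the 7B2 chaperone of prohormone convertase 2, stood at 506 RPKM in TαT1, against 83.2 in αT1–1 (6.08-fold, 5.8 to 6.37), and the granin Scg2, chosen after its value was seen, was also higher (270.2 RPKM in TαT1 and 123 in αT1–1). Pcsk1n, an inhibitor of prohormone convertase 1, was lower (230.3 RPKM in TαT1 and 826 in αT1–1), as were that convertase, Pcsk1 (11.2 RPKM in TαT1 and 31.7 in αT1–1), and the amidating enzyme Pam (13.8 RPKM in TαT1 and 41.3 in αT1–1). Pcsk2 itself differed little (104 RPKM in TαT1 and 119 in αT1–1). Among 19 genes of granule cargo and processing, 3 (15.8%) were 2-fold higher in TαT1 and 5 (26.3%) were lower, with a median of −0.28. At the fusion step, Cplx1, a complexin that binds the SNARE complex, stood at 136 RPKM in TαT1, against 1.65 in αT1–1 (82.9-fold, 65.8 to 106), and the calcium sensors Syt5 (21.8 RPKM in TαT1 and 1.67 in αT1–1) and Syt7 (9.56 RPKM in TαT1 and 2.27 in αT1–1) were higher as well. Syt13, an atypical synaptotagmin, was lower (1.33 RPKM in TαT1 and 14.4 in αT1–1), and so was the vesicle protein synaptophysin, Syp (180.3 RPKM in TαT1 and 463 in αT1–1). Cadps2, a priming factor of dense-core vesicles, was lower in TαT1 (0.0213 RPKM in TαT1 and 9.66 in αT1–1) and stood near 50 RPKM in αT3–1 (49.9) and LβT2 (51.8). Of 33 exocytosis genes, 9 (27.3%) were 2-fold higher and 3 (9.09%) were lower (median 0.37). Over all genes compared, the shares were 9.14% and 9.21%.

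On the list of thyroid hormone action, the few genes that differed by 2-fold were higher in TαT1. Thrsp, a lipogenic gene known as a thyroid hormone target in liver, stood at 14.2 RPKM in TαT1, against 0.19 in αT1–1 (74.6-fold, 28.8 to 276). Hr, a corepressor of the thyroid hormone receptor, stood at 39.3 RPKM in TαT1, against 8.97 in αT1–1. The amino acid and iodothyronine transporter Slc7a8 stood at 6.89 RPKM in TαT1, against 0.955 in αT1–1. Thra, the main receptor gene here, was at 75.5 RPKM in TαT1 and 37.9 in αT1–1, and Thrb was below 1 RPKM in both lines (0.753 RPKM in TαT1 and 0.0678 in αT1–1). With Rxrg, 4 of 18 members of the list were 2-fold higher, none was lower and 14 lay within 2-fold (median 0.25). In the other direction, Slc5a5, the sodium/iodide symporter of the thyroid, was lower in TαT1 (0.217 RPKM in TαT1 and 18.1 in αT1–1, 83.2-fold higher in αT1–1, 47.4 to 161) and was under 1 RPKM in the other 3 lines. Igsf1, a membrane glycoprotein whose loss causes central hypothyroidism in humans, was also lower in TαT1 (5.17 RPKM in TαT1 and 41.3 in αT1–1), and was chosen here after its value was seen.

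By size alone, the gene with the largest difference of log2(RPKM + 1) was Thy1, a surface glycoprotein of neurons, T cells and fibroblasts. It stood at 191 RPKM in TαT1, against 0.171 in αT1–1, from 6259 reads in TαT1 and 6 in αT1–1 (1120.3-fold, 514 to 3054), and did not exceed 0.124 RPKM in the other lines. Sfrp2, a secreted Wnt antagonist, stood at 85 RPKM in TαT1, against 0.543 in αT1–1 (156-fold, 103 to 249.9), and Lef1, a nuclear effector of Wnt signals, at 12.9 RPKM in TαT1, against 0.945 in αT1–1. The Wnt receptor gene Fzd10 went the other way, at 0 in TαT1 and 12.5 RPKM in αT1–1, at least 234-fold lower against the floor. Of 31 Wnt pathway genes, 9 (29%) were 2-fold higher in TαT1 and 3 (9.68%) were lower, against 9.14% and 9.21% over all genes compared. Noggin (Nog), a secreted BMP antagonist, stood at 139.7 RPKM in TαT1, against 16.8 in αT1–1. Fgf13, an intracellular FGF family member that binds sodium channels, stood at 21.3 RPKM in TαT1, against 0.139 in αT1–1, and was listed at 0 in αT3–1, LβT2 and NIH3T3. Ptgds, which makes prostaglandin D, stood at 53.5 RPKM in TαT1, against 1.66 in αT1–1, and the secreted serine protease Htra1 at 98.1 RPKM in TαT1, against 3.2 in αT1–1. Tmem59l, a neuronal membrane protein, had 68.2 RPKM in TαT1 and 0.0332 in αT1–1, where the level rests on 1 read, and Rtn1, a reticulon of neuroendocrine cells, had 56.2 RPKM in TαT1, against 1.85 in αT1–1. Rtn1 was higher still in αT3–1 (83.2). Vegfc, a growth factor of lymphatic vessels, was higher in TαT1 (31.4 RPKM in TαT1 and 0.42 in αT1–1), whereas Vegfa, chosen after its value was seen, was lower (8.7 RPKM in TαT1 and 38.5 in αT1–1).

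The β subunits of the sodium pump (Na+/K+-ATPase) were picked out after their values were seen, since Fxyd2, its γ subunit, was among the 20 largest differences. Fxyd2 stood at 30.7 RPKM in TαT1, from 2355 reads, and at 0 in αT1–1 (at least 843-fold higher). All 3 β subunit genes compared were higher in TαT1: Atp1b3 with 523 RPKM in TαT1 and 79.2 in αT1–1, Atp1b1 with 318 RPKM in TαT1 and 100.3 in αT1–1 and Atp1b2 with 98.8 RPKM in TαT1 and 37.3 in αT1–1. The creatine kinases Ckb (337 RPKM in TαT1 and 45.5 in αT1–1) and Ckmt1 (127 RPKM in TαT1 and 30.6 in αT1–1) were more than 4-fold higher as well.

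Among the genes lower in TαT1, Irs4, an insulin receptor substrate, was farthest apart on the log2(RPKM + 1) scale. It stood at 0.968 RPKM in TαT1, against 200.3 in αT1–1, from 114 reads in TαT1 and 25332 in αT1–1 (207-fold higher in αT1–1, 172 to 251), with 159.9 RPKM in LβT2 and 0 in NIH3T3. Sox18, a SOX factor of developing vessels, was listed at 0 in TαT1, LβT2 and NIH3T3 and stood at 62.9 RPKM in αT1–1 and 68.9 in αT3–1 (at least 640.0-fold lower in TαT1). Cthrc1, a secreted protein of collagen-rich tissues, was listed at 0 in every line but αT1–1, where it stood at 44.8 RPKM. Mgp, the matrix Gla protein that restrains calcification, stood at 1.15 RPKM in TαT1, against 95.9 in αT1–1, and Rbp4, the plasma carrier of retinol, at 2 RPKM in TαT1, against 91.2 in αT1–1 (45.5-fold higher in αT1–1, 34.3 to 61.7). Several of these encode secreted or matrix proteins. The β1 subunit gene of soluble guanylate cyclase, Gucy1b3, stood at 2.02 RPKM in TαT1, against 91.8 in αT1–1, and its neighbour and partner Gucy1a3, chosen after its value was seen, at 0.0684 RPKM in TαT1, against 1.91 in αT1–1. Isyna1, the enzyme that starts inositol synthesis, stood at 1.07 RPKM in TαT1, against 70.5 in αT1–1 and was higher still in αT3–1 (227) and LβT2 (297). Slc12a7, a potassium chloride cotransporter, stood at 1.72 RPKM in TαT1, against 55.3 in αT1–1, and Myot, a sarcomere protein, at 0.361 RPKM in TαT1, against 30.8 in αT1–1. Lxn, an inhibitor of carboxypeptidases, stood at 0.0486 RPKM in TαT1, against 17.3 in αT1–1, the tetraspanin Tspan9 at 0.743 RPKM in TαT1, against 27.9 in αT1–1 and the α-tubulin gene Tuba8 at 0.0371 RPKM in TαT1, against 16.1 in αT1–1. The cell cycle inhibitor Cdkn2b was lower in TαT1 as well (0.495 RPKM in TαT1 and 11.2 in αT1–1). The histone and tubulin deacetylase gene Hdac6 was also lower in TαT1 (30.7 RPKM in TαT1 and 182 in αT1–1).

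The most abundant RNA past 4-fold in either direction was that of Ecel1, a neuronal endopeptidase, which like the next genes was chosen after its value was seen. Ecel1 stood at 171 RPKM in TαT1, against 2359.8 in αT1–1 (13.8-fold higher in αT1–1, 13.5 to 14.1). The light and medium neurofilament genes were lower in TαT1, Nefl with 49.1 RPKM in TαT1 and 728 in αT1–1 and Nefm with 38 RPKM in TαT1 and 460.0 in αT1–1, whereas the heavy chain gene Nefh was higher (32 RPKM in TαT1 and 3.53 in αT1–1). The neurofilaments thus split by chain, although 32.1% of the words of Nefl also occur on the opposite strand of another gene. Of the metallothioneins, zinc-binding proteins, Mt1 (30.1 RPKM in TαT1 and 181 in αT1–1), Mt2 (2.67 RPKM in TαT1 and 51.4 in αT1–1, with 54.6% of its words also on the opposite strand of another gene) and Mt3 (36 RPKM in TαT1 and 103 in αT1–1) were all lower in TαT1. Anxa2, a membrane-binding annexin, was lower (5.29 RPKM in TαT1 and 94.6 in αT1–1), as was its partner S100a10 (0.816 RPKM in TαT1 and 10.3 in αT1–1). S100a10 lies in a stretch of chromosome 3, described below, in which 143 of 150 genes were lower in TαT1.

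Some genes were low in a single line of the 5. Acads, the mitochondrial short-chain acyl-CoA dehydrogenase, stood at 0.116 RPKM in TαT1, from 4 reads, against 18.6 in αT1–1 (161-fold higher in αT1–1, 62.5 to 592), 103 in αT3–1, 61.7 in LβT2 and 65.2 in NIH3T3. The adaptor gene Skap2 and the ETS factor gene Elf4 were likewise below 1 RPKM in TαT1 and above 10 in the other 4 lines. So was the protocadherin entry Pcdhgc3, 65.8% of whose words occur in other transcripts and whose value is therefore uncertain. The only such gene on the αT1–1 side was Mcts1, a factor of translation re-initiation, which stood at 21 RPKM in TαT1 and was listed at 0 in αT1–1 (at least 124-fold higher in TαT1), with more than 10 RPKM in the rest. Conversely, 19 genes were at 10 RPKM or more in TαT1 and under 1 in the other 4 lines, among them Thy1, Prl, Tshb, Vegfc and Lef1. In αT1–1 there were 7, among them Cthrc1, Slc5a5 and Hs3st2, a heparan sulfate sulfotransferase (0.467 RPKM in TαT1 and 24.7 in αT1–1).

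Of the 211 genes 4-fold higher in TαT1, 130 reached 1 RPKM in αT3–1, 103 in LβT2 and 53 in NIH3T3, and 61 (28.9%) in none of these. Of the 203 lower genes, 156 reached it in αT3–1, 127 in LβT2 and 100 in NIH3T3, and 27 (13.3%) in none. Among all genes compared, 3.95% were in none. Most genes that set the pair apart were thus present in at least 1 of the other lines, but less often than the genes compared as a whole.

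Imprinted genes gave some of the largest differences upward. Nnat, a paternally expressed gene of neuroendocrine cells, stood at 536 RPKM in TαT1, against 3.14 in αT1–1 (171-fold, 136 to 216), although LβT2 was far higher than either (9385 RPKM). Mest, another paternally expressed gene, stood at 503 RPKM in TαT1, against 35.8 in αT1–1 (14-fold, 13.4 to 14.7), with 21.8% of its words also on the opposite strand of another gene. Neighbouring transcripts of the Dlk1–Meg3 region on chromosome 12, Begain, Meg3, Mir433, Rian and Mirg, were each 2-fold or more higher in TαT1, and Rian stood at 5.07 RPKM in TαT1 and was listed at 0 in the other 4 lines. Chromosome 12 as a whole was shifted upward in TαT1 against αT1–1, with a median difference of 0.56 and 24% of its genes 2-fold higher. For αT1–1 its median was −0.41 against αT3–1 and −0.52 against LβT2, with −0.04 and −0.12 over all chromosomes. For TαT1 it was 0.29 against αT3–1 and 0.04 against LβT2, with 0.06 and −0.08 over all chromosomes. Whether the transcripts of the Dlk1–Meg3 region differ beyond the shift of the chromosome was not tested. Igf2, a growth factor gene, was high in both and lower in TαT1 (694 RPKM in TαT1 and 1518 in αT1–1), though 63.1% of its words occur in other annotated transcripts. In all, 9 of 38 imprinted genes were 2-fold higher, 6 were lower, and the median was −0.02. The Hox genes gave a second cluster with the opposite sign. Hoxa4 stood at 0 in TαT1 against 8.76 RPKM in αT1–1 (at least 84.1-fold lower in TαT1), and Hoxa5 (0.0283 RPKM in TαT1 and 7.11 in αT1–1), Hoxa6 (0 RPKM in TαT1 and 3.25 in αT1–1) and Hoxa7 (0.0544 RPKM in TαT1 and 4.84 in αT1–1) were lower too. The next gene along, Skap2, was also lower (0.259 RPKM in TαT1 and 44 in αT1–1), and Hoxa13, the other Hox gene at 1 RPKM or more, was not (1.95 RPKM in TαT1 and 1.47 in αT1–1).

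Signalling pathways were mixed. Of 34 genes of the BMP, activin and TGFβ pathway, 6 (17.6%) were 2-fold higher in TαT1 and 2 (5.88%) were lower. Over all genes compared, 9.14% were higher and 9.21% were lower. Bmp2, a BMP ligand, stood at 4.3 RPKM in TαT1, against 0.629 in αT1–1, and Smad4, the shared mediator of the pathway, at 84 RPKM in TαT1, against 30.5 in αT1–1. Inhbb, the βB subunit of activins and inhibin B, stood at 1.37 RPKM in TαT1, against 0.0813 in αT1–1. Of 17 FGF pathway genes, 6 (35.3%) were higher and 5 (29.4%) were lower. Etv5, an ETS factor induced by FGF signals, stood at 24.3 RPKM in TαT1, against 4.08 in αT1–1 (28.7% of its words are shared with another gene), whereas the receptor gene Fgfr2 was lower in TαT1 (1.35 RPKM in TαT1 and 8.46 in αT1–1). Notch targets split as well, with Hes1 higher (5.67 RPKM in TαT1 and 0.817 in αT1–1) and Heyl lower (1.44 RPKM in TαT1 and 13.3 in αT1–1). Among 48 genes of cAMP and Gq signalling, 7 (14.6%) were higher and 3 (6.25%) were lower, near the shares over all genes. The adenylyl cyclase Adcy3 stood at 12.8 RPKM in TαT1, against 1.29 in αT1–1. Stc2, a stanniocalcin that inhibits cleavage of IGF-binding proteins, stood at 6.21 RPKM in TαT1, against 0.0827 in αT1–1, and Igfbp4, one such binding protein, at 6.73 RPKM in TαT1, against 0.837 in αT1–1.

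Transcription factors of other developing organs were among the genes lower in TαT1. Eya1, a transcriptional cofactor of the developing ear and kidney, stood at 0.907 RPKM in TαT1, against 11.9 in αT1–1, and Lmx1b, a LIM homeodomain factor of limb and brain, at 0.261 RPKM in TαT1, against 5.23 in αT1–1. Pax2, a paired factor of kidney, was listed at 0 in TαT1 and stood at 2.09 RPKM in αT1–1. On the other side, Eya4 stood at 3.2 RPKM in TαT1 and was listed at 0 in αT1–1, and Lmo2, a LIM-only factor of blood cells, stood at 6.2 RPKM in TαT1, against 0.598 in αT1–1. Among 55 pituitary and neural transcription factors, 7 were 2-fold higher in TαT1 and 13 were lower, with a median of −0.12. Neurod4, a helix-loop-helix factor of the developing pituitary, was on the lower side (0.238 RPKM in TαT1 and 3.15 in αT1–1), as was Zbtb20, a factor needed for lactotropes (0.679 RPKM in TαT1 and 2.86 in αT1–1).

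Genes of cell contact differed in both directions. Of 43 adhesion genes of neural and endocrine cells, 15 (34.9%) were 2-fold higher in TαT1 and 10 (23.3%) were lower (median 0.73). Over all 63 listed genes, at any level, the median was 0.02. Over all genes compared, 9.14% were higher and 9.21% were lower. Kirrel3 (22.6 RPKM in TαT1 and 0.0102 in αT1–1) was on the higher side. So was Nlgn3 (15.3 RPKM in TαT1 and 1.15 in αT1–1, 42.3% of words shared). The integrins Itga2 (0.0503 RPKM in TαT1 and 5.54 in αT1–1) and Itgav (0.376 RPKM in TαT1 and 7.37 in αT1–1) were on the lower. Among 49 axon guidance genes, 12 (24.5%) were higher and 8 (16.3%) were lower. The semaphorin receptor Nrp2 stood at 10.3 RPKM in TαT1, against 0.268 in αT1–1, and Sema3a, a semaphorin, at 2.47 RPKM in TαT1, against 14 in αT1–1. Potassium channel genes were 2-fold higher in 10 of 31 cases and lower in 3. Genes of the glutamate receptor family were 2-fold higher in 4 of 11 cases and lower in 0. Among them Grin1, the obligate NMDA receptor subunit, stood at 42.8 RPKM in TαT1, against 9.98 in αT1–1. Of 21 immediate early genes, 7 were higher and 1 was lower, among them Nr4a1 (21.8 RPKM in TαT1 and 6.51 in αT1–1) and Myc (27.2 RPKM in TαT1 and 8.34 in αT1–1).

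Of 38 genes of DNA replication and mitosis, 1 was 2-fold higher and 3 were lower (Top2a, the replicative topoisomerase, at 24.3 RPKM in TαT1 and 99 in αT1–1). Sterol synthesis genes were higher in 6 of 28 cases and lower in 1, with a median of 0.66. Subunits of oxidative phosphorylation had a median of 0.47, with 9 of 74 higher and 1 lower. None of 49 histone and DNA methylation enzymes was 2-fold higher and 6 were lower, and none of 22 clock genes was higher and 5 were lower. These shares stand against 9.14% and 9.21% over all genes compared, and no test was made of them.

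**Figure D2:**
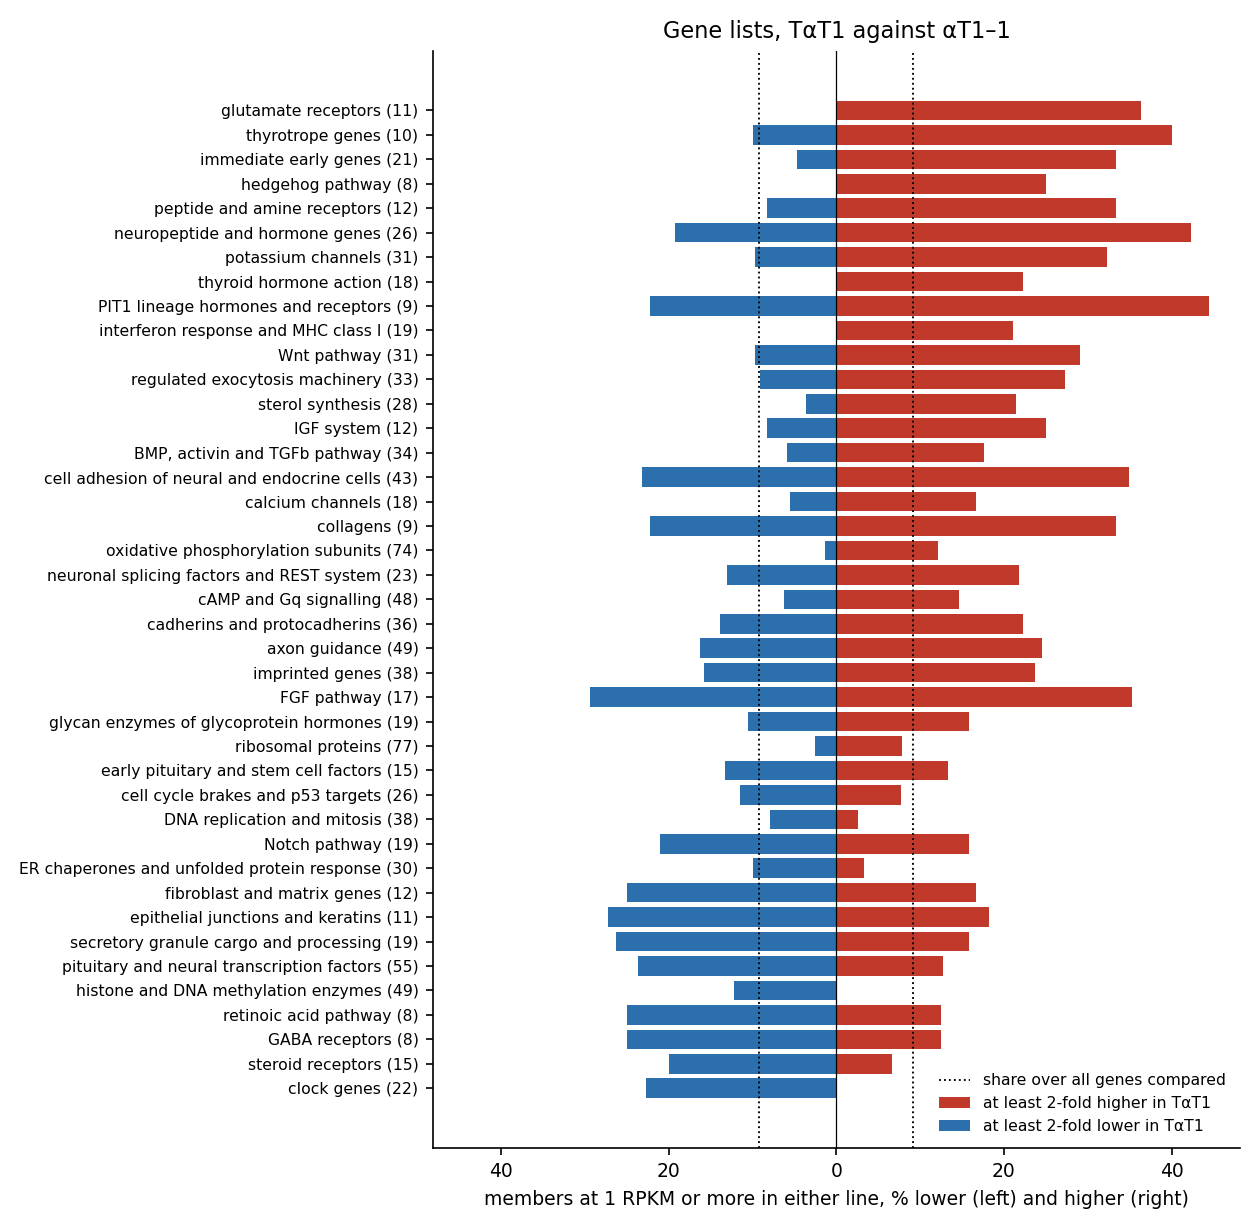
Share of the members of each gene list that were at least 2-fold higher (right) or lower (left) in TαT1 than in αT1–1, with the number of members at 1 RPKM or more in parentheses. Dotted lines mark the shares over all genes compared, 9.14% and 9.21%, and lists with fewer than 8 such members are left out.

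The lower genes were not spread evenly over the genome. Of the genes compared, 11329 could be placed on the GENCODE M21 annotation of GRCm38. Chromosome 3 held 521 of them (4.6%) but 35 of the placed genes 4-fold lower in TαT1 (17.6%). Its median difference was −0.58, with 182 genes 2-fold lower and 27 higher. Chromosome 12 had a median of 0.56, with 95 genes 2-fold higher, 8 lower and none 4-fold lower. Chromosome 9 had a median of 0.36, and the medians of the other 17 chromosomes lay between −0.28 and 0.20. Such shifts were not particular to this pair: for example, chromosome 8 had a median of 0.80 for TαT1 minus LβT2, against −0.08 over all chromosomes of that pair.

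**Figure D3:**
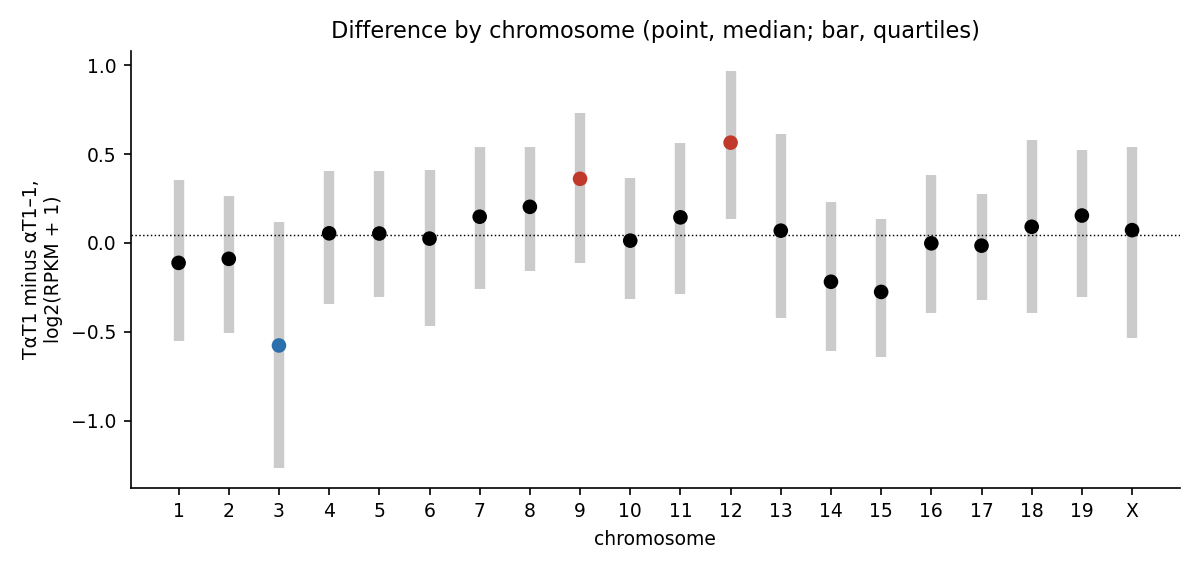
Difference of TαT1 minus αT1–1 in log2(RPKM + 1) for the genes of each chromosome. Points are medians, bars run from the lower to the upper quartile, and the dotted line is the median over all genes. Chromosome 3 lies lowest at −0.58 and chromosome 12 highest at 0.56.

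Along chromosome 3 the difference came in stretches. When the genes of every chromosome were cut into 444 windows of 25 neighbours, 7 windows had a median of −1 or less, all on chromosome 3, and none had a median of 1 or more. On the other chromosomes the lowest window median was −0.95 and the highest 0.88. Of the 7 windows, 6 adjoin one another. They run from D930015E06Rik to Otud7b (chr3:83897655-96161129, GRCm38) and hold 150 of the genes compared. Of these, 143 were lower in TαT1, 120 were 2-fold lower, 22 were 4-fold lower and none was 2-fold higher. The median difference was −1.37, that is, 2.59-fold lower on the RPKM + 1 scale. The window before it, from Smc4 to Tlr2, had a median of −0.07, and the window after it, from Mtmr11 to Notch2, had a median of 0.23. A shorter stretch of 50 genes at the start of the list, from Pxmp3 to Atp11b, had a median of −1.20 with 30 genes 2-fold lower and none higher, and the remaining 321 genes of the chromosome had a median of −0.10. The limits of these stretches were chosen after the values were seen, so they are given as a description.

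In the longer stretch the median level was 11.1 RPKM in TαT1 and 30.4 in αT1–1, with 14.3 in αT3–1, 10.6 in LβT2 and 15.5 in NIH3T3. On this measure αT1–1 stood above the other 4 lines, and TαT1 lay among them. The genes of the stretch named here were chosen after their values were seen. Lmna, which encodes the nuclear lamins A and C, stood at 29.6 RPKM in TαT1, against 139.5 in αT1–1. Efna1, an ephrin, stood at 1.68 RPKM in TαT1, against 12.6 in αT1–1, and Ash1l, a histone methyltransferase, at 1.42 RPKM in TαT1, against 12.7 in αT1–1. Others were the signalling adaptor Shc1 (5.68 RPKM in TαT1 and 31.2 in αT1–1), the PBX-binding protein gene Pbxip1 (0.663 RPKM in TαT1 and 48.2 in αT1–1) and the neuronal splicing factor gene Celf3 (53.7 RPKM in TαT1 and 204 in αT1–1). The longest unbroken run of neighbours at least 2-fold lower was 15 genes from Lass2 to Anp32e, and it included Setdb1, Arnt and Mcl1. Tshb lies on the same chromosome outside both stretches and was higher in TαT1, as given above. These are RNA levels, DNA was not analysed here, and the number of copies of these regions was not tested.

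**Figure D4:**
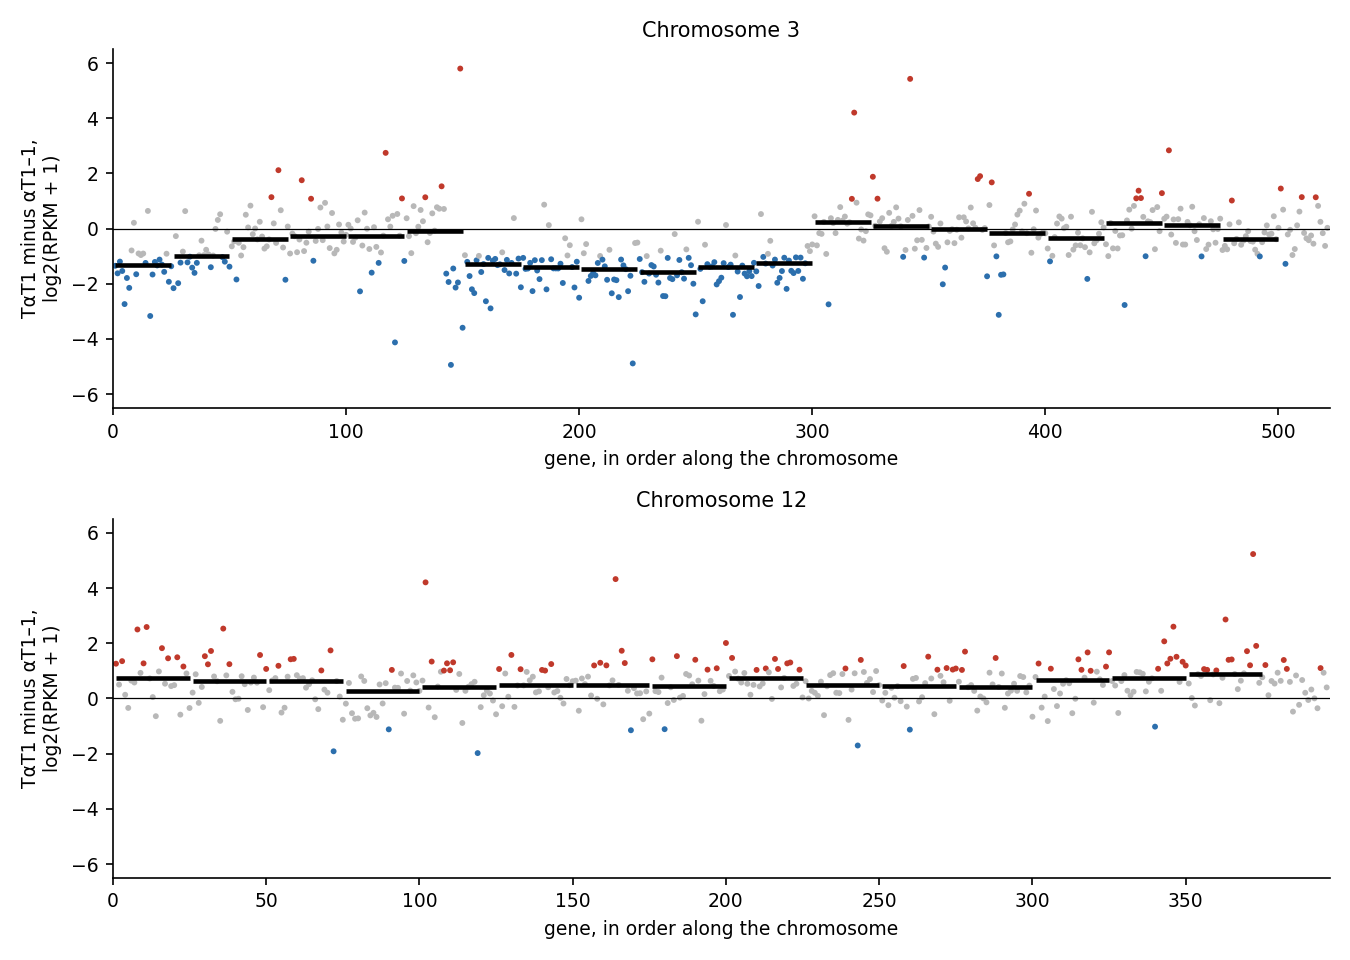
Difference of TαT1 minus αT1–1 in log2(RPKM + 1) for each gene compared on chromosome 3 (top) and chromosome 12 (bottom), in the order of the genes along the chromosome. Black bars are medians of windows of 25 genes; red and blue points are at least 2-fold higher and lower in TαT1. On chromosome 3 the first window and the block of 6 windows lie below −1, and on chromosome 12 all 15 windows lie above 0.

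Over the whole genome, 45.7% of the placed genes 4-fold lower in TαT1 had an adjacent gene 2-fold lower, and 29.2% of the higher ones an adjacent gene 2-fold higher. Over all placed genes, 16.4% had an adjacent gene 2-fold lower and 17.1% one 2-fold higher. Without chromosome 3, 205 genes were 4-fold higher in TαT1 and 168 were lower, an alternative chosen after the data were seen.

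The letters searched in the Tshb and Prl sequences were then counted over RefSeq promoters of 300 bases (250 before and 50 after the start) on both strands. Of the genes compared, 7101 had exactly 1 promoter in the table, among them 123 of the 4-fold higher and 110 of the 4-fold lower genes. TATNCAT was found in 4.07% of the higher genes, 2.73% of the lower genes and 3.51% of all. GATAAG was found in 5.69%, 1.82% and 4.6% of the same groups. TAATTA, the core of many LIM homeodomain sites, was found in 4.07%, 0.909% and 1.94%, and TAATCC, bound by PITX factors, in 7.32%, 2.73% and 5.21%. TATNCAT and TAATTA matches can overlap on AT-rich sequence, and these shares rest on between 1 and 9 genes in each of the smaller groups.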

How the data were processed

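The RPKM values of the 5 lines were deposited by the authors in a single table, 1 column per line. They came from 36 bp single-end reads aligned with CASAVA, from libraries of a TruSeq v2 kit that selects polyadenylated RNA. The study's methods give n = 2 for these libraries, and the table has 1 column per line. For the counting, the genome build and annotation, and any pooling of libraries into a column, were not given in the sources used here. The kit does not mark strand, so reads of overlapping genes cannot be told apart, and where 20% or more of the 36-base words of a gene were found in other genes, the share stands beside its value. This share was not computed for every gene named.

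From the deposited RPKM, 25 entries that hold dates in place of symbols were left out and 9 repeated symbols were kept at the higher mean, which left 21437 genes. Differences are log2(RPKM + 1) in TαT1 minus αT1–1, over genes at 1 RPKM or more in either line, and were called by size at 4-fold (lists at 2-fold). Smallest whole numbers of reads that give the deposited values were recovered for 15298 of 17489 genes above 0, with exact 95% intervals that cover counting error only and a floor of 3 reads for a value of 0. These are read numbers for the lowest values, and minimum numbers for genes seen in few columns.

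Named genes were those of the study, the markers, the 20 largest differences in each direction at 10 RPKM or more in the higher line (without Rik, Gm, LOC and ribosomal protein genes), and up to 6 members of each of 37 lists and 12 symbol families. Members and lists were chosen with earlier results of these data known, and the patterns of the ribosomal and oxidative phosphorylation families were corrected after values were seen. Positions came from GENCODE M21 (GRCm38; 11329 of 11464 genes matched) and promoters from RefSeq (GRCm38.p6). Python 3.11.15, NumPy 2.4.6, pandas 2.3.3, SciPy 1.17.1 and Matplotlib 3.10.9 were used. The recovery of column steps, gene lengths and reads, and the 4-fold calls, were tested on simulated data, and the other steps were not. Alternatives were other pseudocounts, minimums, scalings and thresholds. A few genes that the rule names are not reported here.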

Additional observations from a re-analysis of the deposited data

How the results depend on the processing

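With a pseudocount of 0.1 instead of 1, 508 genes were 4-fold higher in TαT1 and 453 lower, 961 in all, and with a pseudocount of 5 the counts were 62 and 59, 121 in all. At a threshold of 2-fold they were 1048 and 1056, and at 8-fold 64 and 67. With a minimum of 5 RPKM or none, median-of-ratios scaling, quantile normalization, Cga left out, or repeated symbols summed, the counts stayed between 183 and 211 higher and between 178 and 221 lower. TαT1 and αT1–1 remained the closest pair with either pseudocount, a minimum of 5 RPKM and quantile normalization of all columns. No called difference changed sign among 2820 values for the 316 named genes, which include genes that were not called. Another pseudocount or minimum cannot change a sign. The scalings moved the median difference only from 0.05 to between −0.02 and 0.01. The absence of sign changes was therefore fixed in advance and is no measure of robustness. Of 882 list counts, 753 stayed within 1.5 times the value given and 129 did not, 77 of these with another pseudocount and 7 with another scaling. Leaving out chromosome 3, chosen after the data were seen, gave 205 higher and 168 lower genes (54.96% higher, against 50.97% with it). No paired analysis was possible because each line has a single column, and for the same reason no replicate could be left out. Without replicates, differences between cultures of a line were not measured, and counting intervals do not include them.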
